A study of Mus musculus with 3 samples.

Results

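The genes described here are 10 genes known to respond to cyclic AMP or to act in its pathway, namely Nr4a1, Nr4a2, Nr4a3, Crem, Creb1, Pde4b, Pde4d, Rgs2, Rgs16 and Sik1, out of 18193 genes with a probe set of 1 gene symbol on the array. They were taken by name, with all their probe sets, which gave 37 probe sets. The samples were B16 cells, a mouse melanoma line, grown with serum and harvested 0, 2 and 4 h into treatment with doxorubicin at 1 µg/ml, an anthracycline that poisons topoisomerase II. Each time point was measured on 1 Affymetrix Mouse430_2 array, so no test over cultures was made. No untreated culture at 2 or 4 h was analysed here, and the effects of the drug and of culture time cannot be told apart.

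Cyclic AMP is the second messenger of many receptors coupled to the stimulatory G protein, and in pigment cells it is made when melanocortin acts on the receptor Mc1r. It activates protein kinase A, which phosphorylates the transcription factor CREB. CREB binds the cyclic AMP response element in promoters and switches on genes such as Nr4a1, Crem, Sik1 and, in melanocytes, Mitf. Several of the induced products shut the signal off again. Phosphodiesterases of the Pde4 family break cyclic AMP down, and the repressor ICER made from Crem competes with CREB. The kinase Sik1 keeps the CREB coactivators of the Crtc family out of the nucleus. Rgs proteins speed the turn-off of G proteins, which for Rgs16 are Gi and Gq subunits. No cyclic AMP level, kinase activity or protein was measured in this series.

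The description field of the labels names bone marrow-derived macrophages, where members such as Nr4a1 and Pde4b are also known to be expressed, so markers of both cell types were read. All 17 pigment cell markers were on the array, and 16, 14 and 15 of them reached a signal of 200 at 0, 2 and 4 h. Their median signal was 3976, 2200 and 1196, lower at each later time, while their summed signal was 188058, 190594 and 192924. At each time the median was the signal of Mc1r. Tyrp1, an enzyme of melanin synthesis and the brightest of them, differed from that median, at 42568, 44083 and 47128. The next brightest, Pmel and Dct, had 35665, 46371 and 45805 and 35050, 39355 and 42058. Of 21 macrophage markers, 7, 5 and 5 reached 200. Their median signal was 108, 130 and 146, and their summed signal was 4984, 5921 and 6535. Itgam, Cd163, Marco, Aif1 and Ptprc were under a signal of 100 on all 3 arrays, while Cd68, a lysosomal protein, had 1884, 3044 and 3699 and Csf1r, a growth factor receptor, 522, 424 and 376. The part of macrophage RNA in the values below was not tested.

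The promoters are shown because they are where CREB would act on these genes. RefSeq promoter windows for build GRCm38.p6 were matched by symbol for 8 of the 10 genes, and Crem and Sik1 were not matched. The 250 bases before each start site were searched on both strands for the full response element, TGACGTCA, and for its core, TGACG or CGTCA, counted also where it lies within a full element. No member window held the full element, which was found in 1.55% of all 32851 windows. The core was found in 17.8% of all windows, and in 5 of the 11 member windows. Each Nr4a window held 4 cores, the Rgs2 window 2, and 1 of the 4 Pde4b windows held 1, whereas the windows of Creb1, Pde4d and Rgs16 held none. At least 4 cores were found in 45 of all windows (0.137%) and at least 2 in 3.90%, both counts being chosen after the matches were seen. In the Nr4a1 window the cores began 233, 213, 69 and 40 bases before the start site, in that of Nr4a2 at 200, 144, 123 and 111, and in that of Nr4a3 at 231, 213, 205 and 147. A match of these letters is a description and shows no binding. The Nr4a family, Rgs2 and Rgs16 are printed, 5′ to 3′ in the direction of transcription, with the cores in capitals, so that windows with many, few and no cores can be set beside the values.
Nr4a1, chr15:101266596-101266845, plus strand: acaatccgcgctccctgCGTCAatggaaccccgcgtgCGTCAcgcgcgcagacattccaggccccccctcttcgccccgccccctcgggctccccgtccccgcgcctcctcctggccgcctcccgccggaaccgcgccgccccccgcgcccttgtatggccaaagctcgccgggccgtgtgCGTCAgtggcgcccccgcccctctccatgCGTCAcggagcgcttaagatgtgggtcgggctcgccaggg
Nr4a2, chr2:57124004-57124253, minus strand: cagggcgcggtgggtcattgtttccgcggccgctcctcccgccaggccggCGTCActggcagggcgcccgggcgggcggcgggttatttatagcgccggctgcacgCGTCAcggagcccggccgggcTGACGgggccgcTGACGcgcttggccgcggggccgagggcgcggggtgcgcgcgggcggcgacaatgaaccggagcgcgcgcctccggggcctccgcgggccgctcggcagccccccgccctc
Nr4a3, chr4:48045055-48045304, plus strand: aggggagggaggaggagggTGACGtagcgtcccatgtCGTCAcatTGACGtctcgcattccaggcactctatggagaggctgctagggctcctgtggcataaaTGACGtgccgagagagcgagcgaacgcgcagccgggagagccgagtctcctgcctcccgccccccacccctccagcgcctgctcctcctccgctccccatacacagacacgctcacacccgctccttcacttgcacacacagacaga
Rgs2, chr1:144004150-144004399, minus strand: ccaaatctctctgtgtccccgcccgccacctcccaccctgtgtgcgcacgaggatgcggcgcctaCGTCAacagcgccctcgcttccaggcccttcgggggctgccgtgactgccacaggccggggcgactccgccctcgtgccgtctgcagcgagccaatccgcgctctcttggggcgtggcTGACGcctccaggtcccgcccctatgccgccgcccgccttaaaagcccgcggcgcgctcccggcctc
Rgs16, chr1:153740103-153740352, plus strand: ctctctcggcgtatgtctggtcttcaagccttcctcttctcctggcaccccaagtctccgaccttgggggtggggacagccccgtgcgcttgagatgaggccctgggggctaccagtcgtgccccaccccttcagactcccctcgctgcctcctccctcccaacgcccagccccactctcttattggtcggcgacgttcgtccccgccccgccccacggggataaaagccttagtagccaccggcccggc

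Signals are given as the deposited intensities scaled to a trimmed mean of 500 on each array. Signals under 100 were treated as not measured and set to that floor for log2 ratios, so a ratio with 1 side under the floor is a bound, written as "at least". A probe set passed the filter if its log2 signals averaged at least log2 of 200 over the 3 arrays. Of the 37 member probe sets, 11 passed, and 6 of the 10 genes had at least 1 of these. Crem, Pde4d, Rgs2 and Sik1 had none. In all, 12 member probe sets had at least 100 on every array, 16 on some arrays and 9 on none. The probe-level SD given beside ratios measures how far log2 ratios of probe sets of the same gene differ, over all genes with probe sets in the same range of signal. It holds no variation between cultures.

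**Figure D1:**
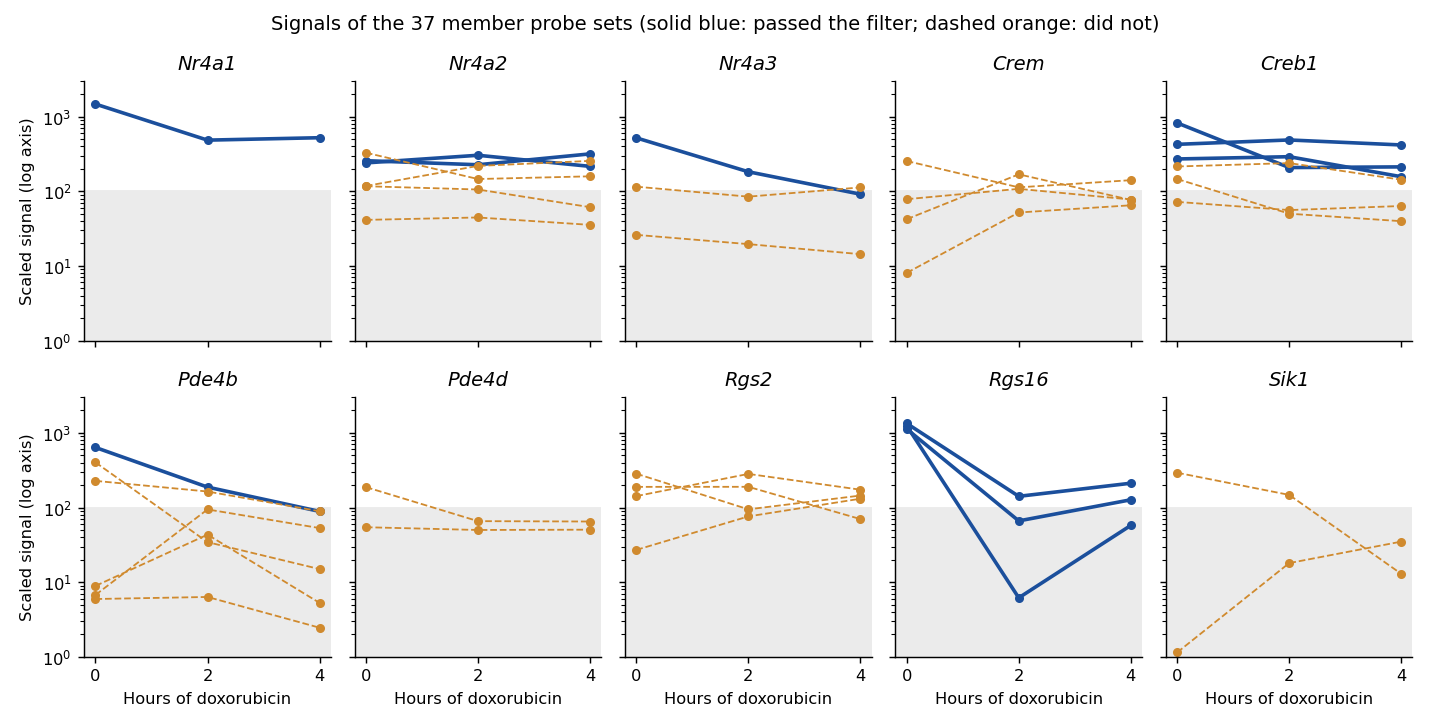
Scaled signal (log axis) of each of the 37 member probe sets at 0, 2 and 4 h of doxorubicin, 1 panel per gene and 1 array per time point. Solid blue lines passed the filter, dashed orange lines did not, and the grey band marks signals under 100. The 3 Rgs16 probe sets start between 1129 and 1340 and lie at 141 or less at 2 h.

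Rgs16, Pde4b and the orphan nuclear receptor genes Nr4a1 and Nr4a3 lay past 2-fold below their 0 h level at both later times. Nr4a2 and Creb1 did not, each gene being read at its brightest passing probe set. Rgs16 was 9.49-fold lower at 2 h, Pde4b 3.40-fold, Nr4a1 3.04-fold and Nr4a3 2.85-fold. At 4 h Pde4b was at least 6.38-fold, Rgs16 6.33-fold, Nr4a3 at least 5.20-fold and Nr4a1 2.82-fold lower. Thus 4 of the 6 genes that passed were at least 2-fold lower at each time, where 5.69% of all 9723 passing genes were so at 2 h and 14.4% at 4 h. None was 2-fold higher, against 1.41% and 2.32%. Pde4b and Nr4a3 had a signal above 200 at 0 h alone, and Rgs16 also passed mainly through its 0 h signal, so the filter favoured their being lower later. The counts describe the genes that passed and are no test. With a filter of 400 in place of 200, 2 members passed and the count was 1 at each time, Nr4a1. The 2 h and 4 h ratios share the 0 h array. In RNA of whole cultures, fewer cells of a kind and less RNA per cell cannot be told apart.

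Rgs16, a regulator of G protein signalling, had the lowest ratio of the passing members at 2 h, and at 4 h its ratio was near the bound for Pde4b. It encodes a protein that speeds GTP hydrolysis by Gi and Gq subunits. Probe set 1451452_a_at had signals of 1340, 141 and 212 at 0, 2 and 4 h, a log2 ratio of -3.25 at 2 h and -2.66 at 4 h. Probe set 1455265_a_at had 1129, 66.2 and 127, and 1426037_a_at had 1247, 6.17 and 57.6. All 3 probe sets were therefore high at 0 h and low at both later times, and each read higher at 4 h than at 2 h, although 1451452_a_at alone was above the floor at both. At 2 h the bound was at least 11.3-fold lower for 1455265_a_at and at least 12.5-fold for 1426037_a_at. The ratio of 1451452_a_at exceeded the probe-level SD of 0.54 at 2 h and 0.64 at 4 h. Counting genes at the floor by their bounds, it was the 7th lowest ratio of 9723 genes at 2 h. Its log2 ratio of 0.58 between 4 h and 2 h was near the probe-level SD of 0.52 for that comparison. All 3 probe sets carry the suffix _a_at, which marks sets that match several transcripts of 1 gene.

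Rgs2, which acts mainly on Gq and also lowers adenylyl cyclase activity, had 4 probe sets that did not agree. Probe set 1419247_at had 284, 94.5 and 145, and 1419248_at, designed from the same sequence AF215668, had 27.0, 76.0 and 131. Probe set 1443250_at had 142, 282 and 173, and 1447830_s_at had 189, 189 and 70.0. One was thus lower at 2 h, 1 higher, 1 level and 1 under the floor at both 0 h and 2 h. At 2 h 1419247_at was at least 2.84-fold lower and 1443250_at was 1.98-fold higher. No direction can be given for Rgs2 from these arrays.

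The Nr4a genes encode orphan nuclear receptors of the immediate early class. Nr4a1, also called Nur77, was measured by 1 probe set, 1416505_at, with signals of 1474, 485 and 522. It was high at 0 h, and the 2 later arrays lay close to each other. The log2 ratio was -1.61 at 2 h and -1.50 at 4 h, against probe-level SDs of 0.43 and 0.51. Nr4a3, also called Nor1, had signals of 520, 183 and 91.5 on 1438796_at, a log2 ratio of -1.51 at 2 h (probe-level SD 0.54) and at least 5.20-fold lower at 4 h. Its other probe sets were dim, 1421080_at at 115, 84.7 and 113 and 1421079_at at 26.1, 19.6 and 14.4. The lower level of Nr4a3 therefore rests on 1 probe set.

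Nr4a2, also called Nurr1, was read by 6 probe sets, and the 2 that passed were near their 0 h level. Probe set 1447863_s_at had 257, 227 and 317, and 1450750_a_at had 240, 304 and 216. Their log2 ratios of -0.18 and 0.34 at 2 h and 0.30 and -0.15 at 4 h were within the probe-level SD of 0.54 and 0.64. Below the filter, 1433423_at had 329, 146 and 159, 2.25-fold lower at 2 h and 2.07-fold lower at 4 h. Probe set 1450749_a_at, designed from the same sequence NM_013613 as 1450750_a_at, had 118, 219 and 255, 2.17-fold higher at 4 h. The probe sets of Nr4a2 thus pointed in opposite directions. Each of the 3 Nr4a promoter windows printed above held 4 cores, and any relation of the cores to the ratios was not tested.

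The phosphodiesterase Pde4b, a main enzyme of cyclic AMP breakdown, was lower at each later time on the 3 of its probe sets that reached 100 at 0 h. Probe set 1422474_at had 638, 188 and 88.7, and 1422473_at, from the same sequence BM246564, had 403, 34.4 and 15.0. Probe set 1444731_at had 228, 164 and 89.0. In each, 0 h was the highest array and 4 h the lowest, and all 3 were under the floor at 4 h. Taking probe sets by their 0 h signal favours this pattern, so it is no separate support. At 2 h 1444731_at was 1.39-fold lower. The ratio of 1422474_at was -1.76 at 2 h, against a probe-level SD of 0.54, and 1422473_at was at least 4.03-fold lower at both times. The other 3 probe sets were under 100 on every array. Their signals were 6.74, 94.3 and 53.0 (1442700_at), 8.90, 43.3 and 5.27 (1446577_at) and 5.94, 6.33 and 2.45 (1447718_at). Pde4d, a related enzyme, had signals of 188, 65.7 and 64.9 on 1435280_at, at least 1.88-fold lower at both times, and 1459311_at, at most 54.4, was under the floor on all arrays. Only the 0 h signal of 1435280_at was above the floor.

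Creb1, the transcription factor at the end of the pathway, had 6 probe sets, and they differed in pattern. Its brightest, 1452901_at, had 426, 487 and 417, with log2 ratios of 0.19 at 2 h and -0.03 at 4 h. Probe set 1428755_at, designed from the same sequence AK014391, had 824, 208 and 212, with ratios of -1.99 and -1.96. The first was level over the 3 arrays and the second was high at 0 h only. Their gap at 2 h exceeded the probe-level SD of 0.54. Probe sets 1423402_at (271, 291 and 157) and 1452529_a_at (215, 239 and 143) were level at 2 h and lower at 4 h, at -0.79 and -0.59, against probe-level SDs of 0.64 and 0.56. Probe set 1421582_a_at had 146, 50.1 and 39.8, and 1421583_at was under 100 on all arrays. Of the 6 probe sets, 1428755_at alone had a ratio or bound past 2-fold, at both times. Probe set 1421582_a_at was at least 1.46-fold lower at both times, a bound that leaves its full ratio unknown.

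Crem, which encodes activators and the repressor ICER, was dim. Probe set 1418322_at had 254, 113 and 141, with log2 ratios of -1.17 at 2 h and -0.85 at 4 h, against probe-level SDs of 0.55 and 0.56 for probe sets of this brightness. Probe set 1430847_a_at had 42.2, 169 and 76.5, above the floor at 2 h only, 1449037_at had 78.3, 108 and 77.6, and 1430598_at stayed under 100. The probe sets are not tied to ICER or to full-length Crem here. Sik1, the salt-inducible kinase, had signals of 293, 148 and 12.9 on 1419766_at, 1.98-fold lower at 2 h and by at least 2.93-fold at 4 h, with 0 h highest and 4 h lowest. Its other probe set, 1459601_at, was under 100 on all arrays.

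Among the 11 passing probe sets, 7 were at least 2-fold lower at each time, where 5.68% and 13.9% of all 15785 passing probe sets with 1 symbol were so, and 0 were 2-fold higher, against 1.66% and 2.74%. The 7 were the 3 of Rgs16 and 1 each of Nr4a1, Nr4a3, Pde4b and Creb1. Several of them, such as 1426037_a_at and 1455265_a_at of Rgs16, passed the filter through a high 0 h signal, which favours lower later values, and nothing is read from the count against the background.

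**Figure D2:**
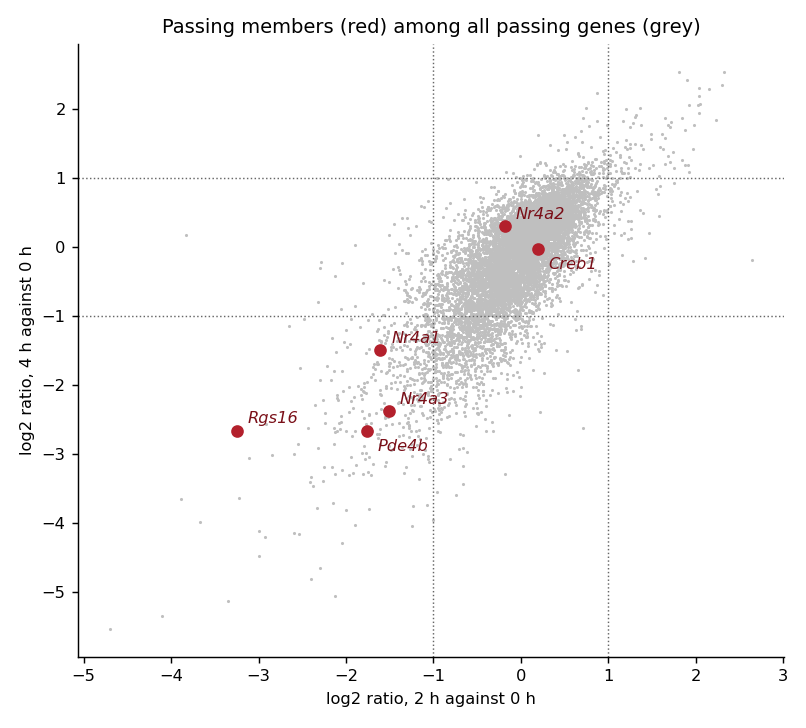
Log2 ratio at 2 h against 0 h (x axis) and at 4 h against 0 h (y axis) for the 9723 passing genes (grey) and the 6 passing members (red), with dotted lines at 2-fold. Rgs16, Pde4b, Nr4a1 and Nr4a3 lie past 2-fold on the lower side at both times, and Nr4a2 and Creb1 lie within 2-fold at both.

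Between 2 h and 4 h no passing member had a ratio or bound past 2-fold in either direction, where 5.41% of all genes lay past 2-fold on the lower and 0.843% on the higher side. From 2 h to 4 h Pde4b was lower by at least 1.88-fold and Nr4a3 by at least 1.83-fold, both bounds set by the floor. Nr4a1 was 1.08-fold higher and Rgs16 1.50-fold higher at 4 h than at 2 h. Nr4a1 and Rgs16 thus read lowest at 2 h, and Pde4b, Nr4a3 and Sik1 at 4 h. For Nr4a1 the log2 ratio of 0.11 was under the probe-level SD of 0.40, so its hour of lowest signal cannot be given. That of Rgs16, 0.58, was near its SD of 0.52. By the hybridization date stamps in the file headers, the 4 h array came later than the other arrays. It was therefore counted as a separate run, which cannot be told apart from the hour of harvest.

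Genes with a pattern most like a member were sought by the distance between the pairs of log2 ratios at 2 h and 4 h, over 3 arrays, among genes of like signal that were above the floor on all arrays. Of the members past 2-fold, Nr4a1 and Rgs16 met this condition. Nearest to Nr4a1 among 4403 genes were Trim59, a member of the tripartite motif family (-1.56 and -1.39), and Cttnbp2nl, which encodes a cortactin-binding protein relative (-1.48 and -1.50). Nearest to Rgs16 among 4509 genes were the immediate early gene Ier2 (-2.91 and -2.57) and Snhg5, a host gene of small nucleolar RNAs (-2.59 and -3.01). Trim59 and Cttnbp2nl each lay 0.12 from Nr4a1, whereas Ier2 and Snhg5 lay 0.35 and 0.74 from Rgs16.

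The rest of the pathway was read from 4 gene lists, of which Mc1r and Mitf are also in the pigment cell marker list. Among the receptor, G proteins, cyclases, kinase subunits, anchors and coactivators of cyclic AMP signalling, 32 of 40 genes passed. At 2 h 4 of them were at least 2-fold lower and 0 higher, against 5.69% and 1.41% of all genes. At 4 h 10 were lower and 2 higher, against 14.4% and 2.32%. The median log2 ratio was -0.06 at 2 h and -0.34 at 4 h, against -0.01 and -0.07 for all genes. The receptor Mc1r, named after its values were seen, had signals of 3976, 2200 and 1196 and a ratio of -1.73 ± 0.05 (SD over 2 probe sets) at 4 h. Among cyclases, Adcy2 was at -1.07 at 2 h and -0.81 at 4 h. Of the protein kinase A subunits, the regulatory Prkar2b was at 0.91 and 1.24 and the regulatory Prkar1b at -1.15 and -2.07, the latter with an SD of 1.72 over 2 probe sets at 4 h. Pkia, an inhibitor of protein kinase A, was at 0.45 and 1.03. The kinase anchors Akap10 and Akap13 were at -1.11 and -1.63 and at -1.39 and -1.45. The acetyltransferase Ep300, a CREB coactivator, was at -0.89 and -1.87, and its relative Crebbp, named after its values were seen, at -0.38 and -1.80.

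Of 17 other genes with Pde names, not all of which need be active phosphodiesterases, 6 passed, and of 19 other Rgs genes, 7 passed. Read at its brightest passing probe set, no gene of either list was 2-fold different at 2 h, where 5.69% of all genes were lower and 1.41% higher. At 4 h 1 of each list was at least 2-fold lower, where 14.4% of all genes were so. The cyclic AMP phosphodiesterase Pde7a was at -0.37 at 2 h and -1.11 at 4 h, Pde1c at -0.05 and -0.60, Pde6d at 0.003 and -0.009, and Pde1b at 0.73 and 0.49. Rgs3 was at -0.78 at 2 h and -1.49 at 4 h, with SDs of 0.39 and 0.91 over 2 probe sets. Rgs20 was at -0.49 and -0.83, Rgs10 at 0.01 and 0.25, and Rgs9 at -0.19 and 0.27. The list medians were -0.02 and -0.19 for the genes with Pde names and -0.19 and -0.49 for the Rgs genes. Rgs16 and Pde4b were lower at 2 h than every gene of their own family list that passed, each read at its brightest passing probe set. The filter favoured this, since Pde4b passed through its 0 h signal and Rgs16 mainly so. Rgs2 and Pde4d, which are members and did not pass, are not in these lists. Nothing is read from this ranking.

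Of 25 other genes known as CREB targets, 13 passed, with 7 at least 2-fold lower at 2 h, 9 at 4 h and 0 higher at either time, where 5.69% and 14.4% of all genes were lower. The median was -1.03 at 2 h and -1.31 at 4 h. Lowest were Id2, an inhibitor of basic helix-loop-helix factors, at -2.30 and -4.66, and the transcription factor Cebpb at -2.05 and -4.29, the latter with an SD of 1.70 over 2 probe sets. Mitf, the regulator of pigment genes, was at -1.70 and -3.15, and Id1 at -1.55 and -2.35. The AP-1 genes Fos and Junb were at -1.33 and -1.70 and at -1.53 and -1.31, and the stress gene Gadd45b at -1.03 and -1.24. Highest were Fosb, another AP-1 gene, at -0.25 and -0.09 and Ppargc1a, a metabolic coactivator, at -0.32 and -0.12. Many of these genes are also induced by serum and other signals, and the list was written with their values in these arrays known.

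**Figure D3:**
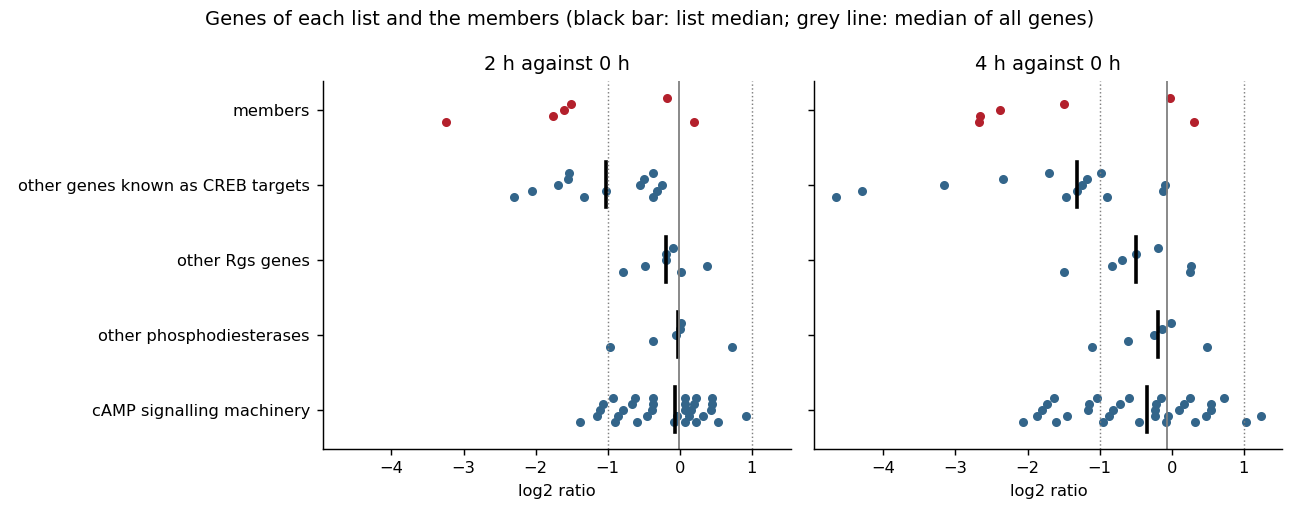
Log2 ratio at 2 h (left) and 4 h (right) against 0 h of each passing gene of the 4 lists (blue) and of the 6 passing members (red). Black bars mark list medians, the grey line the median of all genes, and dotted lines 2-fold. At 4 h the CREB target list has a median of -1.31 and the other lists lie between -0.49 and -0.19.

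Ratios depended on how arrays were scaled, by unequal amounts from gene to gene, and ratios set by the floor could stay as they were. The median log2 ratio of all genes at 4 h was -0.07, and it moved by 0.30 with equal medians, by 0.12 with quantile normalization and by -0.31 with scaling to the hybridization spike-ins. The share of lower genes among those past 2-fold at 4 h was 86.1%, and 54.5%, 69.7% and 97.6% in these scalings. At 2 h it was 80.1%, and 60.7%, 63.2% and 93.8%, and between 2 h and 4 h 86.5%, and 64.0%, 72.8% and 94.0%. Over these 3 scalings the log2 ratio at 2 h ranged from -3.46 to -3.09 for Rgs16, from -1.98 to -1.57 for Pde4b, from -1.82 to -1.45 for Nr4a1 and from -1.73 to -1.31 for Nr4a3. At 4 h Nr4a1 ranged from -1.82 to -1.19 and Rgs16 from -2.98 to -2.36, so these genes stayed at least 2-fold lower. The ratios of Nr4a2 and Creb1 changed sign over these scalings at both times, from -0.40 to 0.01 and from -0.02 to 0.37 at 2 h.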

How the data were processed

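Per the file headers, the arrays were Mouse430_2. The values deposited by the authors are linear intensities per probe set that had been scaled, since their 2% trimmed mean is 150.0 on every array. Per the submitters' processing notes GCOS 1.4 was used. How signals were computed is not given in the sources. Settings of the fluidics station, deposited per array, gave the chip type and the date stamps, and the run was inferred from gaps between these stamps. Arrays were assigned to times from their titles, although the source and description fields also speak of "ET", which is not explained. Here arrays were brought to a trimmed mean of 500, a floor of 100 was applied, and values were put on the log2 scale. Probe sets with a mean log2 signal of at least that of 200 passed. Of 45101 probe sets, 34958 carried 1 symbol in the platform annotation, 932 several, and 9211 were not listed. Controls were left out, and symbols were updated by Entrez ID to RefSeq (GRCm38.p6) for 34741 probe sets. A gene took its brightest passing probe set.

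No test, p-value or standard error over cultures was possible. Differences were counted at 2-fold. The members, the lists, the alternatives and the rule for naming genes were chosen with earlier results of these data known. That rule took every member with all its probe sets. Of each list it took the 2 highest and 2 lowest genes at 4 h and those at least 2-fold different at 2 h, and of each marker list the 3 brightest, of which the text gives some. For members at least 2-fold different and above the floor on all arrays it took the 2 nearest genes by both log2 ratios, with a mean log2 signal within 1 of the member. The probe-level SD came from genes with at least 2 passing probe sets, in 4 bins of signal, adjusted for the number per gene. A separate value was taken for probe sets under the filter with at least 100 on all arrays. The counting step was tested on simulated arrays with folds planted in genes brighter than the members, so it does not cover signals as dim as theirs. The scaling step was checked on the deposited values multiplied by constants, and the motif search on short made-up sequences. Python 3.11.15, numpy 2.4.6, pandas 2.3.3 and matplotlib 3.10.9 were used, and 11 alternative settings were run.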

Additional observations from a re-analysis of the deposited data

How the results depend on the processing

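With 1 array per time point, no alternative could set a ratio against a spread between cultures, and the number of arrays limits every value. The 6 counts of members past 2-fold were run under 11 alternatives, and 60 of 66 values lay within 1.5 times the main count. Most of these were counts of 0 that stayed at 0, so that figure says little about stability. The main count was 0 for higher members at each time and for both directions between 2 h and 4 h. With the values as deposited, where the floor and filter cut higher signals, 1 member passed, Nr4a1, and the count of lower members was 1 at 2 h and 1 at 4 h in place of 4. With a filter of 400, 2 members passed and the count of lower members was again 1 at 2 h and 1 at 4 h. With equal medians, Rgs2 passed the filter and the count of members at least 2-fold higher at 2 h was 1 in place of 0. With a floor of 50, Pde4b was at least 2-fold lower between 2 h and 4 h, a count of 1 in place of 0. With a floor of 200 every probe set met the filter. With probe sets of _x_at, _s_at or _a_at names left out, Rgs16 had no probe set left, and the log2 ratio of Nr4a2 was -1.17 at 2 h and -1.05 at 4 h, against -0.18 and 0.30. No member ratio that was past 2-fold in the main setting changed sign under the 11 alternatives, but some shrank to near 0. Crem at 2 h was at -0.08 with the mean over its probe sets. With the values as deposited, Crem at 2 h and Sik1 at 4 h were at 0, all their signals being under the floor. Members within 2-fold in the main setting could pass it under another setting. With the values as deposited Creb1 was read by another probe set, at -1.31 at both times, while Pde4b stood at -0.94 and Nr4a3 at -0.64 at both times. These ratios are bounds, since only the 0 h signal was above the floor, and each gene was lower by at least that much. The ratio of Rgs2 at 2 h was 0.99 in the main setting, from -0.51 with a floor of 200 to 1.16 over the alternatives. The value of -0.51 is a bound set by the floor and came from another probe set, 1419247_at.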
